A study of Mus musculus with 16 samples.

Results

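The 7 genes of the cyclin-dependent kinase (CDK) inhibitors were examined in cultured neural stem/progenitor cells (NSPCs) of the adult mouse subventricular zone (SVZ), the niche along the lateral ventricles that produces new neurons. The genes were taken by symbol from the deposited table, and they are 7 of its 30386 genes: *Cdkn1a*, *Cdkn1b* and *Cdkn1c* of the Cip/Kip family (3 genes) and *Cdkn2a*, *Cdkn2b*, *Cdkn2c* and *Cdkn2d* of the INK4 family (4 genes). Of these, 6 passed the filter on low values, and *Cdkn1c* did not. The control cells, *GFP*-NSPCs, carry a plasmid for a green fluorescent protein (pTP6-hrGFP), and the *Dbx2*-NSPCs carry pTP6-*Dbx2*, which drives constitutive expression of mouse *Dbx2*, a homeobox transcription factor gene. Both groups stem from SVZ cells of C57BL/6 J/Babr mice of 3 months of age, both were kept under puromycin, the drug that selects for the plasmids, and both were grown as non-adherent neurospheres. Each group holds 8 samples, numbered 1 to 8. Both transgenes were represented by lines of independent derivation, and the labels do not say which line a sample came from, so that the numbers 1 to 4 and 5 to 8 are used here only as sets of replicate numbers. The sources used here do not state how many clones a line holds.

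CDK inhibitors brake the cell cycle by binding the kinases that cyclins switch on. The Cip/Kip proteins p21 (from *Cdkn1a*), p27 (*Cdkn1b*) and p57 (*Cdkn1c*) bind complexes of cyclins with Cdk2 and also those with Cdk4 and Cdk6, whereas the INK4 proteins p16 (*Cdkn2a*), p15 (*Cdkn2b*), p18 (*Cdkn2c*) and p19 (*Cdkn2d*) bind Cdk4 and Cdk6 alone and keep them from D-type cyclins. *Cdkn1a* is a classic target of the tumour suppressor p53, and *Cdkn2a* also encodes p19Arf, which stabilises p53 by holding back Mdm2. In neural stem cells, p21, p27 and p57 are known for their part in quiescence, and p16 for its rise with age.

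The inhibitor genes lie on 5 chromosomes of the mouse genome (GRCm38). *Cdkn1a* is on chromosome 17 (chr17:29090976-29100727, plus strand), *Cdkn1b* on chromosome 6 (chr6:134920401-134925513, plus strand), *Cdkn1c* on chromosome 7 (chr7:143458339-143461050, minus strand) and *Cdkn2d* on chromosome 9 (chr9:21288410-21291407, minus strand). *Cdkn2a* (chr4:89274471-89294653) and *Cdkn2b* (chr4:89306299-89311039) are neighbours on the minus strand of chromosome 4, and *Cdkn2c* is on the same chromosome, at chr4:109660876-109667189. The libraries read the 3′ ends of mRNAs. The 2 annotated transcripts of *Cdkn2a* end 70 bases apart and start 12461 bases apart, so reads from the p16 and p19Arf transcripts could not be told apart and the level of *Cdkn2a* is that of both. *Cdkn1a* overlaps AC167363.2 and *Cdkn1c* overlaps Gm44732, both on the opposite strand; the sources used here do not state whether counting used the strand. Gm44732 was listed at 0 in every sample.

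The sequences in front of the start sites are shown for the 2 genes that passed the test over all samples, *Cdkn1a* and *Cdkn1b*, as given by RefSeq for GRCm38.p6 (250 bases before each start, without exon bases of the gene itself). *Cdkn1a* has an upstream start (stretch chr17:29090729-29090975) and a downstream start (stretch chr17:29093519-29093768, inside the exon of AC167363.2 on the opposite strand), and *Cdkn1b* has a single stretch, chr6:134920151-134920400. All are on the plus strand, read 5′ to 3′. Capitals mark the p53 response element in the first stretch, GGGCGG in the second, and GGGCGG and CCAAT in the third.
*Cdkn1a* upstream start: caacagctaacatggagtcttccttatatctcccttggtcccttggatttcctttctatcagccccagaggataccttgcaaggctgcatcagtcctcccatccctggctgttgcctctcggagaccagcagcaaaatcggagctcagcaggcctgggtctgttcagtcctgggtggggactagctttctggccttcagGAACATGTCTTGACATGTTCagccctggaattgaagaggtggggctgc
*Cdkn1a* downstream start: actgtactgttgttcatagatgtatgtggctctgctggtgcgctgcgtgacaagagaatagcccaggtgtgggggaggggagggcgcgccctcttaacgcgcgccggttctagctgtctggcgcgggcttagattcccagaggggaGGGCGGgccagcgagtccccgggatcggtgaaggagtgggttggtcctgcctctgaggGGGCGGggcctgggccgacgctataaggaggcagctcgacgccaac
*Cdkn1b*: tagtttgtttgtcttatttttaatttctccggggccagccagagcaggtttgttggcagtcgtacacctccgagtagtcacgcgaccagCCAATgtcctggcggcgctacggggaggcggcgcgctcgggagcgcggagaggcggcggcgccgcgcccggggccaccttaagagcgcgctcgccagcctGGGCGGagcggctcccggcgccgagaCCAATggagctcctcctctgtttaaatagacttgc
The element in the first stretch, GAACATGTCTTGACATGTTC, lies at chr17:29090928-29090947, has 1 mismatch to the p53 response element consensus and was found in a search of both strands. Windows of 250 bases before to 50 bases after a start held such an element, with at most 1 mismatch, in 29 of 32851 cases (0.0883%). The other windows of the inhibitors, 8 for 6 genes with *Cdkn1a* included, had 3 to 6 mismatches at best, and no window was given for *Cdkn1c*. GGGCGG, searched on both strands, was held by 35.7% of all windows and CCAAT by 37.4%. The marked motifs do not overlap each other, and a match describes the letters only.

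QuantSeq 3′ mRNA sequencing of 100 ng of total RNA gave between 1803928 and 3293285 reads on the listed genes of each sample, and levels are given in CPM, the reads of a gene scaled to a common library total. As each transcript is read at its end, CPM values of different genes can be set side by side without a correction for length. The floor of 3 reads corresponds to 0.911 to 1.66 CPM, and intervals and floors cover counting error only. As a check of the transgene, the level of *Dbx2* was 77.2 ± 51.8 CPM in controls and 155 ± 35.4 CPM in *Dbx2*-NSPCs (mean ± SD, n = 8 each). The log2 fold change was 1.26, with an adjusted p of 0.00978 (limma with Benjamini-Hochberg adjustment over 12533 genes, as for every adjusted p that follows). Within numbers 1 to 4 it was 0.54 (adjusted p = 0.0892, limma). There the controls had 89.3 to 171 CPM, with replicate 1 the highest, and overlapped the *Dbx2*-NSPCs at 136 to 232 CPM. Within numbers 5 to 8 it was 1.99 (adjusted p = 5.67e-08, limma), with 30.7 to 39.5 CPM in controls and 114 to 155 CPM in *Dbx2*-NSPCs. The difference between the sets was 1.45 on the log2 scale (interaction in limma, adjusted p = 0.000104). Whether transcripts of the transgene end in the annotated 3′ end of *Dbx2* is not given in the sources used here. All 8 markers of neural stem and progenitor cells passed the filter and summed to 5943 to 7387 CPM in controls and 4801 to 6221 CPM in *Dbx2*-NSPCs. Of these, *Egfr* (log2 fold change -0.45), *Fabp7* (-0.72) and *Slc1a3* (-1.03) were lower in *Dbx2*-NSPCs (adjusted p 0.00433, 0.0149 and 0.0259, limma), and their part in the levels of the inhibitors was not tested. None of 4 microglia and blood markers passed. *GFP*-NSPC replicate 1 also stood apart from the other controls numbered 1 to 4 in *Cdkn1a*, so values with and without it are given below. The outlier criterion used further below did not flag it for *Cdkn1a*.

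*Cdkn1a* was the most abundant inhibitor in every sample and the one that rose in *Dbx2*-NSPCs, while *Cdkn1b* fell. *Cdkn1a* had 364 CPM at the lowest, 1422 at the median and 1867 at the highest in *GFP*-NSPCs, and 1522, 2349 and 2651 CPM in *Dbx2*-NSPCs. It ranked 57th of 30386 genes by mean CPM in *GFP*-NSPCs and 20th in *Dbx2*-NSPCs. *Cdkn1b* fell from 138 ± 16.6 to 103 ± 19.8 CPM (mean ± SD, n = 8 each). None of the 4 INK4 genes passed the test over all samples. Hence 1 of the 6 tested inhibitors was called higher and 1 lower, where 15.8% of all tested genes were called in either direction, 8.03% higher and 7.78% lower. In bulk samples, fewer cells with a transcript and less of it per cell cannot be told apart. The p-values measure the spread between these cultures and treat them as independent, although they come from fewer lines.

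**Figure D1:**
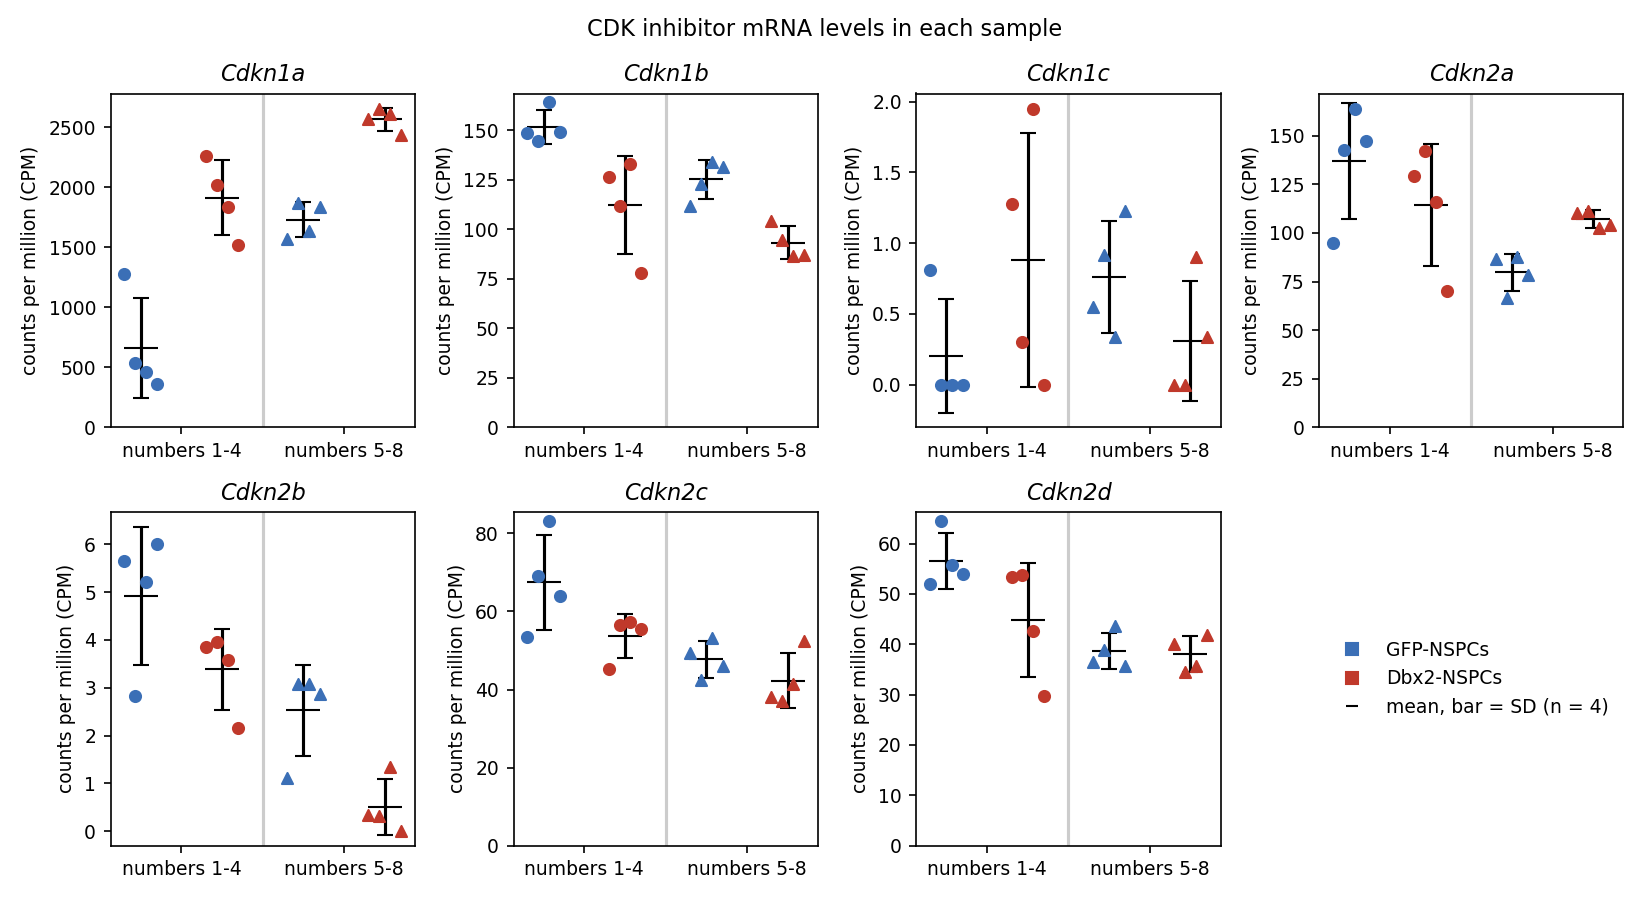
Level of each of the 7 inhibitors in every sample, in CPM, with *GFP*-NSPCs in blue and *Dbx2*-NSPCs in red, separately for numbers 1 to 4 (circles) and 5 to 8 (triangles), and the mean with the SD (n = 4) in black. Each panel has its own linear axis; *Cdkn1a* lies between 364 and 2651 CPM, and in both sets all *Dbx2*-NSPCs lie above the controls for *Cdkn1a* and below them for *Cdkn1b*.

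For *Cdkn1a*, whose product p21 stops CDKs after DNA damage and other stress, the controls numbered 1 to 4 had 1273, 531, 462 and 364 CPM. The *Dbx2*-NSPCs with the same numbers had 2264, 2020.4, 1836 and 1522 CPM. All 4 were above every control of this set, of which replicate 1 was the highest, and 9.53% of tested genes had *Dbx2*-NSPCs above all controls in the same way. The log2 fold change was 1.70 (adjusted p = 0.00263, limma), and without *GFP*-NSPC replicate 1 it was 2.08 (adjusted p = 9.19e-06, limma). The mean rose 2.91-fold, by 1253 CPM.

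In numbers 5 to 8, the controls had 1570.4, 1867, 1637 and 1836 CPM of *Cdkn1a*. The *Dbx2*-NSPCs had 2566, 2651, 2613 and 2435 CPM, again all above the controls. The log2 fold change of this set was 0.57 (adjusted p = 9.42e-05, limma), a 1.49-fold rise of the mean by 838 CPM. In this set, 12.2% of tested genes had all *Dbx2*-NSPCs above the controls.

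Over all 16 samples, the log2 fold change of *Cdkn1a* was 1.14 (SE 0.314, 95% CI 0.48 to 1.80, adjusted p = 0.0178, limma), and it was 1.19 without *GFP*-NSPC replicate 1 (adjusted p = 0.0183, limma). Groups without overlap over all samples were found for 1.60% of tested genes with *Dbx2*-NSPCs higher and 1.81% with them lower. For *Cdkn1a* the groups overlapped, since controls numbered 5 to 8 reached the levels of *Dbx2*-NSPCs numbered 1 to 4. *Cdkn1a* was higher in the *Dbx2*-NSPC sample for 8 of 8 replicate numbers, which follows from the lack of overlap within each set. The sets also differed within a group: *Cdkn1a* was 2.63-fold higher in controls numbered 5 to 8 than in those numbered 1 to 4, and 1.34-fold higher in *Dbx2*-NSPCs, without overlap in either group. How many of all tested genes had such sets without overlap was not counted. The fold change was smaller in numbers 5 to 8 than in numbers 1 to 4, by 1.13 on the log2 scale (interaction in limma, value -1.13, adjusted p = 0.0191), in a comparison where 9.44% of tested genes were called, 5.04% in this direction and 4.40% in the other. Without *GFP*-NSPC replicate 1, an alternative chosen after the data were seen, this value was -1.51 (adjusted p = 4.47e-07, limma). For *Dbx2* itself, the difference between the sets was 1.45, in the other direction (adjusted p = 0.000104, limma). A link between the differences of the genes was not tested.

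*Cdkn1b* encodes p27, an inhibitor that holds cells in G1 and is removed by the Skp2 ubiquitin ligase. The controls numbered 1 to 4 had 149, 145, 164 and 149 CPM, and the *Dbx2*-NSPCs 127, 112, 133 and 77.9 CPM. All *Dbx2*-NSPCs were below all controls of the set, as in 10% of tested genes. The log2 fold change of -0.46 missed the threshold (adjusted p = 0.0588, limma), and its adjusted p was 0.0386 in the fit with a replicate block. When 1 library was left out, it ran from -0.55 to -0.29, with adjusted p from 0.0486 to 0.154 (limma). The value of -0.29 was that without *Dbx2*-NSPC replicate 4, the lowest of the set. In numbers 5 to 8, the controls had 112, 123, 134 and 132 CPM, and the *Dbx2*-NSPCs 104, 94.7, 86.7 and 87.1 CPM. Again all *Dbx2*-NSPCs were lower, as in 12.6% of tested genes, and the log2 fold change was -0.42 (adjusted p = 0.00466, limma). Over all samples it was -0.44 (SE 0.112, 95% CI -0.67 to -0.21, adjusted p = 0.0103, limma). Values were lower in *Dbx2*-NSPCs for 8 of 8 numbers, which follows from the lack of overlap within each set. The difference between the sets was 0.04 on the log2 scale (adjusted p = 0.940, limma). The *Cdkn1b* means of *GFP*-NSPCs and *Dbx2*-NSPCs thus differed 1.35-fold in numbers 1 to 4 and 1.34-fold in numbers 5 to 8.

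*Cdkn1c*, the imprinted gene of p57, was at or near the floor. It had 10 reads in all in *GFP*-NSPCs and 14 in *Dbx2*-NSPCs, was listed at 0 in 3 samples of each group, and reached 1.95 CPM at most, in *Dbx2*-NSPC replicate 3. A difference between the groups was not detectable at this depth, and the gene was not tested.

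Among the INK4 genes, *Cdkn2a* had the highest level. Its controls numbered 1 to 4 had 94.7, 142, 164 and 147 CPM, and the *Dbx2*-NSPCs 129, 142, 116 and 70.0 CPM. These groups overlapped, and the log2 fold change was -0.28 (adjusted p = 0.432, limma). In numbers 5 to 8, the controls had 86.4, 66.6, 87.4 and 78.6 CPM, and the *Dbx2*-NSPCs 111, 112, 102 and 104 CPM. Here all *Dbx2*-NSPCs were above the controls, as in 12.2% of tested genes. *Cdkn2a* rose by a log2 fold change of 0.43 (adjusted p = 0.00637, limma), in a set where 11.5% of tested genes were called higher. The difference between the sets, 0.71 on the log2 scale, had an adjusted p of 0.0660 in limma, and without *GFP*-NSPC replicate 1 it was 0.88 (adjusted p = 0.00938). Over all samples the log2 fold change was 0.08 (95% CI -0.30 to 0.45, adjusted p = 0.822, limma). Controls numbered 1 to 4 had 1.72-fold more *Cdkn2a* than those numbered 5 to 8, without overlap, opposite to the order seen for *Cdkn1a*. The same order without overlap held for *Cdkn1b* (1.21-fold), *Cdkn2c* (1.41-fold) and *Cdkn2d* (1.46-fold). The share of all tested genes without overlap between the control sets was not counted.

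*Cdkn2b*, which encodes p15 and is known as a gene induced by TGF-beta, was low in every sample. The controls had 1.11 CPM at the lowest, 3.07 at the median and 6 at the highest, and the *Dbx2*-NSPCs 0, 1.75 and 3.95 CPM. These values rest on 84 and 47 reads in all. The log2 fold change over all samples was -1.08 (95% CI -2.04 to -0.11, adjusted p = 0.125, limma), and its adjusted p was 0.0358 in the fit with a replicate block. In numbers 5 to 8, *Cdkn2b* fell by 1.69 on the log2 scale (adjusted p = 0.0152, limma), from 28 reads to 5 reads summed over 4 samples each. A lower value in *Dbx2*-NSPCs was seen for 4 of 4 numbers there, although the groups overlapped at *GFP*-NSPC replicate 5, the shallowest library. The size of this fold depended on the pseudocount, with a log2 fold change of -2.60 at 0.1 and -0.86 at 2. In numbers 1 to 4 it was -0.46 (adjusted p = 0.380, limma), and the difference between the sets was -1.23 (adjusted p = 0.218).

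*Cdkn2c* encodes p18, and *Cdkn2d* p19. *Cdkn2c* had 42.3, 53.4 and 83.1 CPM in controls (lowest, median and highest) and 37.0, 48.8 and 57.3 CPM in *Dbx2*-NSPCs. *Cdkn2d* had 35.8, 47.8 and 64.5 CPM in controls and 29.8, 41.0 and 53.7 CPM in *Dbx2*-NSPCs. The groups overlapped for both genes in each set. The log2 fold change over all samples was -0.25 for *Cdkn2c* (95% CI -0.54 to 0.04, adjusted p = 0.249, limma). For *Cdkn2d* it was -0.20 (95% CI -0.50 to 0.11, adjusted p = 0.401, limma). Within the sets, neither gene passed the threshold, with log2 fold changes of -0.32 and -0.18 for *Cdkn2c* and -0.36 and -0.03 for *Cdkn2d* in numbers 1 to 4 and 5 to 8. In numbers 1 to 4, 1 of 6 tested inhibitors was thus called, *Cdkn1a*, where 15.6% of tested genes were called, 8.19% higher and 7.37% lower. In numbers 5 to 8, 4 of 6 were called, 2 higher (*Cdkn1a* and *Cdkn2a*) and 2 lower (*Cdkn1b* and *Cdkn2b*), where 23.2% of tested genes were called, 11.5% higher and 11.7% lower.

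**Figure D2:**
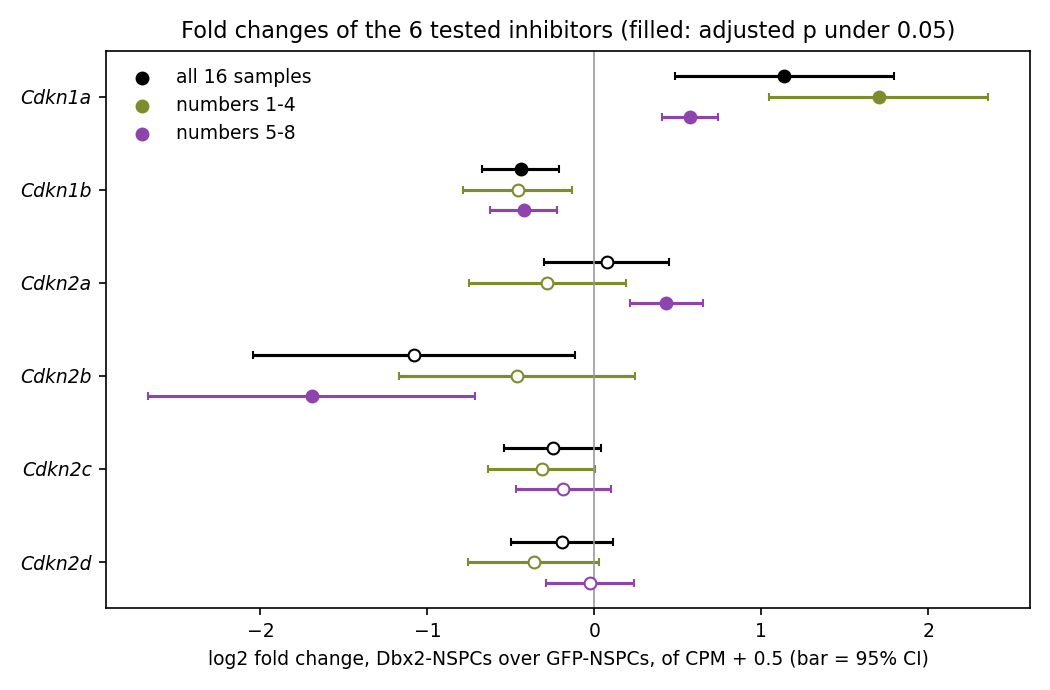
Log2 fold change of CPM + 0.5 in *Dbx2*-NSPCs over *GFP*-NSPCs (x axis) with its 95% CI for the 6 tested inhibitors, over all 16 samples (black) and within numbers 1 to 4 (green) and 5 to 8 (purple), filled where the adjusted p is under 0.05. *Cdkn1a* lies to the right of 0 in all 3 fits (1.14, 1.70 and 0.57) and *Cdkn1b* to the left (-0.44, -0.46 and -0.42).

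In *GFP*-NSPCs, the order of mean levels was *Cdkn1a* (1193 CPM), *Cdkn1b* (138), *Cdkn2a* (108), *Cdkn2c* (57.6), *Cdkn2d* (47.7), *Cdkn2b* (3.73) and *Cdkn1c* (0.481). Each gene was above the next in 8 of 8 controls, although the ranges of neighbours overlapped except between *Cdkn1a* and *Cdkn1b* and between *Cdkn2d* and *Cdkn2b*. In *Dbx2*-NSPCs the order was *Cdkn1a* (2238 CPM), *Cdkn2a* (111), *Cdkn1b* (103), *Cdkn2c* (47.9), *Cdkn2d* (41.5), *Cdkn2b* (1.94) and *Cdkn1c* (0.596). There *Cdkn2a* was above *Cdkn1b* in 6 of 8 samples and *Cdkn2c* above *Cdkn2d* in 6 of 8. The ranges of these neighbours overlapped, and no test between genes was run.

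Set against the other inhibitors, *Cdkn1a* took a larger share of the CPM of the 7 genes in *Dbx2*-NSPCs. The share was 78.2%, 55.6%, 49.5% and 46.4% in controls numbered 1 to 4, and 86.3%, 84.6%, 83.8% and 86.6% in the *Dbx2*-NSPCs of these numbers. In numbers 5 to 8, it was 83.6% to 87.2% in controls and 89.5% to 90.7% in *Dbx2*-NSPCs. The share was therefore higher in all *Dbx2*-NSPCs than in all controls of the same set, and the gap was wider in numbers 1 to 4. The widest of the 16 Wilson 95% intervals, in *GFP*-NSPC replicate 4, ran from 44.4% to 48.4%. The other 6 genes summed to 356 ± 74.1 CPM in controls and 305 ± 49.0 CPM in *Dbx2*-NSPCs (mean ± SD, n = 8 each), and the sum of all 7 was 1549 CPM and 2544 CPM. The ratio of *Cdkn1a* to *Cdkn1b* ran from 2.44 to 15.2 in controls and from 13.8 to 30.1 in *Dbx2*-NSPCs.

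**Figure D3:**
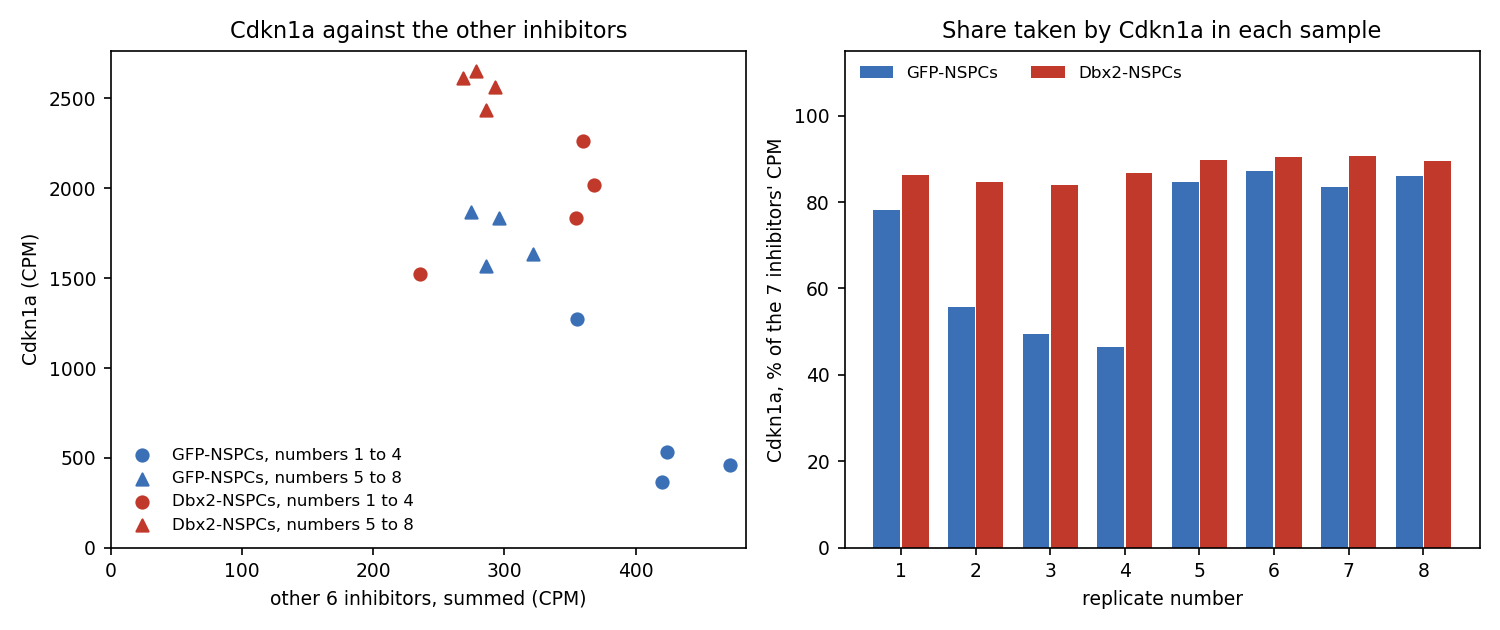
Left, *Cdkn1a* against the summed CPM of the other 6 inhibitors, 1 point a sample (*GFP*-NSPCs blue, *Dbx2*-NSPCs red, circles numbers 1 to 4, triangles numbers 5 to 8). Right, *Cdkn1a* as a percentage of the CPM of all 7 inhibitors for each replicate number, where the control bar is lowest at number 4 (46.4%) and all *Dbx2*-NSPC bars lie between 83.8% and 90.7%.

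Across the 16 samples, which fall into 4 clusters by transgene and number set, the log2 levels of *Cdkn1a* ran opposite to those of the other 5 tested inhibitors (Pearson's r from -0.83 with *Cdkn2c* to -0.49 with *Cdkn2a*). After the mean of each group and set was taken off, *Cdkn2c* still ran opposite to it (r = -0.57), while *Cdkn1b* had an r of 0.18. *Cdkn2d* stayed close to *Cdkn2a* (r = 0.73) and *Cdkn1b* (r = 0.63) on that footing. All points share their libraries, and these values are descriptions.

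The genes whose log2 levels were most like those of *Cdkn1a*, out of 8651 genes whose mean reached 10 CPM, were *Slc2a9*, a urate transporter (r = 0.97), *Nfe2l2*, which encodes the stress factor Nrf2 (r = 0.97), *Cpped1*, a phosphatase (r = 0.97), *Carhsp1*, an RNA-binding protein (r = 0.96), and *Rpl11*, a protein of the large ribosomal subunit (r = 0.96). For *Cdkn1b* they were *Lrch2*, *Tmcc3* and *Slc25a3* (r from 0.89 to 0.91), and for *Cdkn2a* they were *Lmo3*, *Cspg5* and *Tmem256* (0.85 to 0.87). *Mcu* and *Serpinh1* were among those most like *Cdkn2b* (0.91 and 0.90), and *Arhgap33*, *Nampt* and *Hdgfl3* most like *Cdkn2c* (0.91 to 0.93). *Pank1*, *Epdr1* and *Elovl5* were closest to *Cdkn2d* (all 0.89). These values include the differences between groups and sets. After the mean of each group and set was taken off, *Serpinh1* had an r of 0.43 with *Cdkn2b*. The other genes named here then had an r from 0.67 (*Slc25a3* with *Cdkn1b*) to 0.91 (*Rpl11* with *Cdkn1a*).

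Of 25 listed genes of p53 and its direct targets, *Cdkn1a* not among them, 24 were tested; 11 rose, where 8.03% of all tested genes did, and none fell. No gene of the list had a lower level at an unadjusted p under 0.05 in limma, and edgeR and DESeq2 called 0 lower. The median log2 fold change of the list was 0.56, beside -0.02 over all tested genes. *Phlda3*, which holds back Akt signalling, rose from 74.4 to 168 CPM, a log2 fold change of 1.23 (adjusted p = 0.000160, limma). *Fas*, a death receptor, rose from 2.21 to 6.32 CPM, with 1.44 (adjusted p = 0.00266, limma). *Sesn2*, a stress-induced inhibitor of mTORC1, changed by 0.60 and *Ei24*, an autophagy protein, by 0.52 (adjusted p 0.00457 and 0.00582, limma). *Trp53* itself had 19.6 CPM in controls and 17.3 CPM in *Dbx2*-NSPCs, and its log2 fold change of -0.18 did not pass (adjusted p = 0.476, limma). *Perp* was below the filter.

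Within numbers 1 to 4, 11 of the 24 genes were called higher and none lower (median 0.49), where 8.19% of all tested genes were higher and 7.37% lower. This count was 7, 6 and 5 without *GFP*-NSPC replicate 2, 3 or 4 and 7 without *Dbx2*-NSPC replicate 2. Within numbers 5 to 8, 11 were higher and 1, *Sesn1*, was lower (median 0.43), beside 11.5% and 11.7% of all tested genes. Without *GFP*-NSPC replicate 5, 6, 7 or 8 or *Dbx2*-NSPC replicate 5, 6 or 8 or with the replicate block, no gene was called lower. Of 19 listed genes with a promoter window, 1 held a p53 response element with at most 1 mismatch, *Ccng1*, a cyclin G gene, which rose from 148 to 231 CPM (log2 fold change 0.71, adjusted p = 0.00805, limma).

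**Figure D4:**
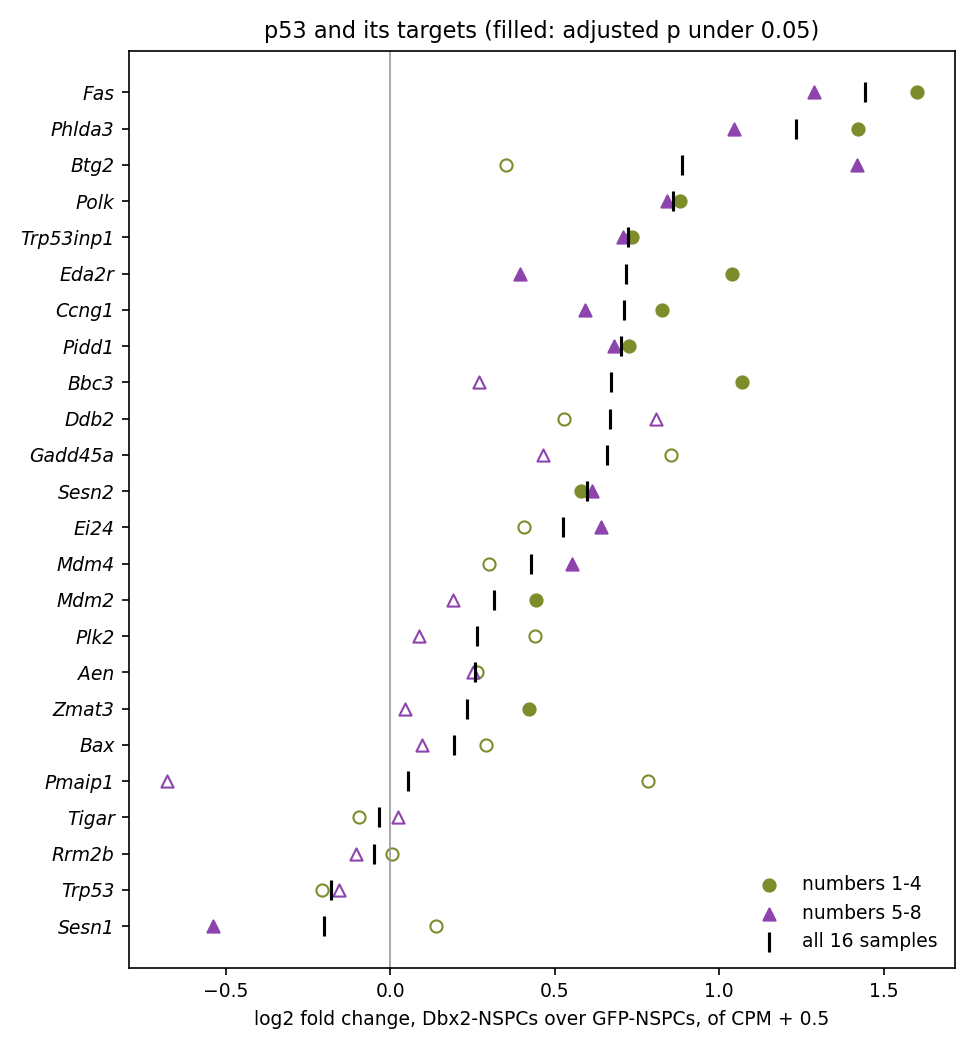
Log2 fold change of CPM + 0.5 in *Dbx2*-NSPCs over *GFP*-NSPCs (x axis) for the 24 tested genes of the list of p53 and its targets (rows, ordered by the value over all 16 samples, black ticks), within numbers 1 to 4 (green circles) and 5 to 8 (purple triangles), filled where the adjusted p is under 0.05. Over all samples, 20 genes lie above 0 and 4 below it, with *Fas* at 1.44 and *Sesn1* at -0.20 as the ends.

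Of 10 cyclins and kinases bound by the inhibitors, 1 rose and 3 fell over all samples (median log2 fold change -0.05), where 8.03% of all tested genes were called higher and 7.78% lower. *Cdk4*, the kinase bound by INK4 proteins and p21, fell from 292 ± 64.3 to 164 ± 13.5 CPM, a log2 fold change of -0.80 (adjusted p = 4.31e-05, limma). *Cdk2*, the main target of p21 and p27, fell from 60.3 ± 13.0 to 34.7 ± 11.1 CPM (log2 fold change -0.83, adjusted p = 0.00774, limma). Both passed within each number set. *Ccna2*, a cyclin of S and G2 phase, fell by 0.64 on the log2 scale (adjusted p = 0.0157, limma). *Ccnd1*, the partner of Cdk4 and Cdk6, rose by a log2 fold change of 0.27 (adjusted p = 0.0169, limma), which was not called without the filter on low values. In the fit with a replicate block, 2 genes of this list were higher.

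Of 11 pocket proteins and E2F factors, through which CDKs act on S phase genes, none rose (also at an unadjusted p under 0.05 in limma, and in edgeR and DESeq2) and 2 fell, beside 7.78% of all tested genes, with a median of -0.15. *E2f7*, a repressor of the family, fell by 0.95 and *E2f5* by 0.64 on the log2 scale (adjusted p 0.0194 and 0.0281, limma), and 1 gene was lower without *GFP*-NSPC replicate 2, 3 or 4 or *Dbx2*-NSPC replicate 5 or 8. *E2f2* (0.27) and *Rb1* (-0.28) did not pass (adjusted p 0.325 and 0.332, limma).

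Of 13 parts of the ubiquitin ligases that turn over p21, p27 and p57, 1 rose and 2 fell (median -0.11), beside 8.03% and 7.78% of all tested genes. *Skp2*, which marks p27 for destruction, fell from 36.1 ± 9.10 to 19.3 ± 2.89 CPM, a log2 fold change of -0.86 (adjusted p = 0.000547, limma), and it passed in both number sets. *Rbx1* fell by 0.24 and *Anapc11* rose by 0.36 on the log2 scale (adjusted p 0.0373 and 0.0264, limma). *Cks1b*, the cofactor of Skp2, had a log2 fold change of -0.44 that missed the threshold (adjusted p = 0.0516, limma). The list held 1 lower gene without any single control numbered 2 to 8 or *Dbx2*-NSPC replicate 3, no higher gene without *GFP*-NSPC replicate 5 or 6 or *Dbx2*-NSPC replicate 7, and 2 higher genes with the replicate block.

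Of 20 transcription and chromatin factors that act on inhibitor genes, 2 rose and 3 fell (median -0.22), beside the same shares of all tested genes, 8.03% and 7.78%, and with the replicate block 4 were higher and 7 lower. *Klf4*, an activator of *Cdkn1a*, rose from 20.7 ± 11 to 46.7 ± 8.62 CPM (log2 fold change 1.36, adjusted p = 0.00394, limma). *Smad3*, a mediator of TGF-beta signals, rose from 41.3 ± 12.1 to 71.6 ± 18.8 CPM, with 0.79 (adjusted p = 0.00417, limma). *Bmi1*, a Polycomb gene known for silencing *Cdkn2a*, fell by 0.36 on the log2 scale (adjusted p = 0.00544, limma). *Klf4* and *Smad3* passed within both sets. Without *Dbx2*-NSPC replicate 8, 5 factors were lower.

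Around *Cdkn1c*, 7 of 13 listed genes of the imprinted domain were tested, and 2 rose, beside 8.03% of all tested genes, while none fell (0 at an unadjusted p under 0.05 in limma, 1 in edgeR). *Tssc4* rose from 114 to 318 CPM (log2 fold change 1.44, adjusted p = 8.41e-06, limma), and *Cd81*, a tetraspanin gene, from 496 to 899.8 CPM (0.86, adjusted p = 2.15e-05, limma), next to a *Cdkn1c* at or near the floor in both groups. *H19* (-1.24) and *Cars* (-0.13) did not pass over all samples (adjusted p 0.304 and 0.554, limma). *H19* had 0 to 17.3 CPM in controls and 0 to 1.61 CPM in *Dbx2*-NSPCs, there at or near the floor. Within numbers 1 to 4, *H19* fell by 2.47 on the log2 scale (adjusted p = 0.00824, limma). In numbers 5 to 8 its log2 fold change was 0 to rounding, the value that a gene listed at 0 in all samples gives. A lack of change there cannot be told from a lack of detection. The difference between the sets, 2.47 (adjusted p = 0.0238, limma), therefore repeats the change in numbers 1 to 4. Of the 3 listed neighbours of *Cdkn2a* and *Cdkn2b*, *Dmrta1* was below the filter, and neither *Mtap* (0.17, adjusted p = 0.340) nor *Elavl2* (-0.16, adjusted p = 0.614) was called by limma, edgeR or DESeq2, nor at an unadjusted p under 0.05.

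Markers of other cells moved with the groups in part. *Gfap*, an astrocyte filament gene, rose from 5.77 ± 7.48 to 42.6 ± 24.7 CPM (adjusted p = 0.000354, limma), while *Aldh1l1* fell from 241 ± 76.2 to 103 ± 24.8 CPM (adjusted p = 0.000198, limma). The 4 astrocyte markers, all past the filter, summed to 179 to 441 CPM in controls and 120 to 245 CPM in *Dbx2*-NSPCs. The 4 markers of neuroblasts and neurons summed to 11.7 to 35.5 CPM and 11.8 to 40.2 CPM, and 2 of them changed in opposite directions in the number sets. *Dcx*, a microtubule gene of neuroblasts, had a log2 fold change of -2.87 in numbers 1 to 4 and 3.02 in numbers 5 to 8 (adjusted p 0.00111 and 8.48e-05, limma). *Rbfox3*, which encodes NeuN, had -1.96 and 2.90 (adjusted p 0.0106 and 0.000125, limma). The differences between the sets, 5.89 for *Dcx* and 4.86 for *Rbfox3*, passed the test (adjusted p 3.26e-07 and 3.90e-06, limma), while both genes were low, with group means of 2.14 and 2.41 CPM for *Dcx* and 3.22 and 5.45 CPM for *Rbfox3*. *Snap25* was lower in numbers 1 to 4 (-1.56, adjusted p = 0.0328, limma), but its group means of 1.23 and 0.376 CPM were close to the floor. Markers of ependymal cells, 2 of 3 past the filter, summed to 9.56 to 21.4 CPM and 14.4 to 34.7 CPM. *Ccdc153*, low with group means of 1.43 and 5.41 CPM, rose by a log2 fold change of 1.75 (adjusted p = 0.0102, limma). It was called in numbers 1 to 4 (adjusted p = 0.00276, limma) and not in numbers 5 to 8 (adjusted p = 0.245, limma). The part of these in the levels of the inhibitors was not tested. *Mki67*, a marker of cycling cells, had 409 ± 74.4 and 374 ± 75.5 CPM, and its log2 fold change of -0.13 did not pass (adjusted p = 0.550, limma).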

How the data were processed

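Total RNA of 8 *GFP*-NSPC and 8 *Dbx2*-NSPC cultures had been made into QuantSeq 3′ mRNA libraries and read single-end at 101 bp. The authors checked the reads with FastQC 0.11.8, trimmed them with bbduk, aligned them with STAR 2.5.0a to GRCm38 and used edgeR 3.36; the counting tool is not given in the sources used here. The authors deposited CPM values for 30386 genes. The step between low values gave back whole reads for at least 99.9925% of values per sample (tolerance 0.01 CPM). Groups and numbers came from the sample labels, and every sample column was used.

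Genes above 1 CPM in at least 4 samples (12533) were compared by limma 3.58.1 (R 4.3.3, eBayes with trend) on a scale of log2(CPM + 0.5), 2-sided, with Benjamini-Hochberg adjustment over all of them and a threshold of 0.05, for all samples, within numbers 1 to 4 and 5 to 8, and for the interaction. The authors' cell line covariate could not be fitted, as the labels do not give it. Deviations of same-numbered samples from their group means correlated at 0.152 to 0.303 for all 8 numbers. A difference between the number sets raises such values even without pairing. Within the number sets the correlations were -0.01 to 0.119, so a pairing by number was not shown. The replicate block treats same-numbered samples, with numbers from the labels, as pairs and is given only as an alternative. As alternatives, pseudocounts of 0.1 and 2, TMM scaling, the replicate block and edgeR 4.0.16 on the recovered reads were tried for every comparison, and each library was left out for all but the interaction, which was refitted without *GFP*-NSPC replicate 1 alone. Over all samples, 2 further filters, median-of-ratios scaling, eBayes without trend, the number set as a covariate (in limma and edgeR) and DESeq2 1.42.0 were added. Named genes were the 7 inhibitors, *Dbx2*, the genes most like each inhibitor (5 for *Cdkn1a*, 3 for the others) and up to 4 genes per list with the smallest p, of which 2 are not reported here; *Trp53*, *Perp*, *Sesn1*, *Ccng1* and the single markers were chosen after their values were seen. The inhibitors and the lists were chosen with earlier results of these data known. The tests were tried on simulated data first. Gene positions came from GENCODE M21 and promoter windows from RefSeq (GRCm38.p6), which matched 6 of 7 inhibitors.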

Additional observations from a re-analysis of the deposited data

Results flagged for a closer look

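The effect on *Cdkn1a* differed between the number sets: the log2 fold change in numbers 5 to 8 less that in numbers 1 to 4 was -1.13 (interaction in limma, adjusted p = 0.0191). The controls had a mean of 1728 CPM in numbers 5 to 8 and 658 CPM in numbers 1 to 4, and the *Dbx2*-NSPCs 2566 and 1911 CPM. The fold change of *Dbx2* itself differed in the other direction, by 1.45 (adjusted p = 0.000104, limma). A link between the differences of the genes was not tested.

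In 3 of 42 groups of 4 or 8 samples, a single sample lay far from the others by Dixon's criterion, which chance meets in about 1 of 20 groups. *Cdkn1c* had 0.81 CPM in *GFP*-NSPC replicate 1 and was listed at 0 in the other controls numbered 1 to 4, a value of 2 reads. *Cdkn2b* had 1.11 CPM in *GFP*-NSPC replicate 5, under the other controls numbered 5 to 8 (2.88 to 3.07 CPM). *Cdkn2c* had 45.3 CPM in *Dbx2*-NSPC replicate 1, under the other *Dbx2*-NSPCs numbered 1 to 4 (55.6 to 57.3 CPM).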

How the results depend on the processing

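Of 419 alternative values for 28 results, 406 were classed as the same. For a fold change this meant the same direction and the same side of the threshold. For a count of called genes it meant a count within a set ratio of the main count. The count of called genes over all samples was 1982, 3034 with the number set as a covariate (cause not tested) and 2723 with the replicate block. In numbers 1 to 4 it was 1950, and 1286 to 2209 when 1 library was left out, with the lowest count without *GFP*-NSPC replicate 3. *Cdkn2b* over all samples was called with the replicate block (adjusted p = 0.0358), with the number set as a covariate (0.0161) and with edgeR plus that covariate (0.0477), and *Cdkn1b* in numbers 1 to 4 with the block (0.0386) and without *Dbx2*-NSPC replicate 3 (0.0486, limma); the block changed no other call of an inhibitor. *Cdkn2a* in the difference between the sets was called without *GFP*-NSPC replicate 1 (0.88, adjusted p = 0.00938, limma), a choice made after the data were seen. Values near 0 turned in sign: *Cdkn2a* over all samples, at -0.014 to 0.17 when 1 library was left out (below 0 without *GFP*-NSPC replicate 6), *Cdkn2d* in numbers 5 to 8, at -0.074 to 0.032 when 1 library was left out (above 0 without *GFP*-NSPC replicate 7 and without *Dbx2*-NSPC replicate 6 or 7), and *Cdkn1b* in the difference between the sets with edgeR (-0.0030). *Cdkn2b* fell below the filter of a mean of 10 CPM and has no value there. *Cdkn1a* kept its call in every alternative run, at 0.93 to 1.27 over all samples and 1.48 to 2.08 in numbers 1 to 4. Depth limits *Cdkn1c* and *Cdkn2b*, which rest on 24 and 131 reads in all.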
